A study of Mus musculus with 6 samples.

Results

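The genes described here are 50 genes of DNA replication and of the G1/S transition, the step at which a cell commits to copying its genome. They were taken by symbol from a table of 30445 genes, and all 50 were found there and had enough counts to be tested. Messenger RNA was sequenced in 3 groups of wild-type mouse cells with 2 libraries each: embryonic fibroblasts (MEF), a stage labelled as myeloid-like cell complex (MCC), and induced macrophages (iMac). By its title, the study turns fibroblasts into macrophages with c-Myc and no other factor. For every group the treatment, time and age, and for MCC and iMac how they were made, are not given in the labels. Separate cultures are not named either, so the p-values measure only the spread between these libraries, which may be technical.

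Before a cell divides, origins of replication are licensed by the loading of the ring-shaped MCM helicase, which the origin recognition complex, Cdc6 and Cdt1 bring about and which geminin restrains by binding Cdt1. D-type cyclins with Cdk4 or Cdk6, and later E-type cyclins with Cdk2, phosphorylate the retinoblastoma protein and its relatives. This frees E2F transcription factors, which drive many of the genes that encode the replication machinery and the enzymes that make deoxynucleotides. Macrophages that have finished differentiating usually divide little, while fibroblasts in culture divide until they become senescent. Myc is known to raise the expression of many genes of growth and of entry into S phase.

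Library totals lay between 34389817 and 39174367 counts. Levels are given as CPM, the count divided by the scaled library total in units of 1000000 counts, and fold changes as log2 values with their standard error (SE). Myc was at 63.1 to 70.7 CPM in the MEF libraries, 823 to 1164 CPM in MCC and 1022 to 1060 CPM in iMac. Counts per gene do not tell reads of the cell's own Myc from those of any Myc that was introduced. The 12 macrophage markers summed to 24.2 and 48.0 CPM in MEF, 12101 and 12206 CPM in MCC and 24024 and 20286 CPM in iMac. Of these markers Itgam had no counts in either MEF library and Spi1 none in MEF library 1, and all 12 had counts in MCC and iMac. The 12 fibroblast markers summed to 20518 and 8855 CPM in MEF, 912 CPM in MCC library 1 against 79.8 CPM in MCC library 2, and 15.4 and 12.2 CPM in iMac. Lum, which encodes a matrix proteoglycan, had no counts in iMac library 2. Endothelial cells are another cell type that an embryonic culture could hold. Their 6 markers summed to 33.6 and 43.6 CPM in MEF and to between 8.37 and 10.3 CPM in the other libraries. Tek or Emcn had no counts in MCC library 1 and in both iMac libraries, and Tie1 had none in MEF library 1. The 6 did not move together. Emcn, at 23.8 and 30.8 CPM, made up most of the MEF sums. For 2 of the 6, Pecam1 and Tie1, the level was higher in MCC and in iMac than in MEF. In bulk RNA, fewer cells of a type and less RNA per cell cannot be told apart.

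Most genes of the replication machinery were highest in MCC, while the D-type cyclins were highest in MEF. Of the 50 genes, 26 rose in MCC over MEF and 6 fell (edgeR quasi-likelihood test, adjusted p under 0.05). Over all genes tested in that comparison 23.4% were called higher and 29.6% lower. The median log2 fold change of the 50 was 0.66, beside -0.05 over all tested genes. In iMac over MEF 9 of the 50 rose and 10 fell, beside 25.1% and 32.4% of all tested genes. The median was 0.18 for the 50 and -0.06 for all. The shares of all tested genes called in these comparisons also stand beside the counts by role below. Both MCC libraries were above both MEF libraries for 34 of the 50 and below them for 7, beside 38.2% and 42.4% of all tested genes. Both iMac libraries were above both MEF libraries for 20 and below them for 14, beside 39.1% and 43.5%. Both comparisons use the same MEF libraries, so they are given side by side and not as support for each other. The libraries in which a gene was highest were MCC library 2 for 19 of the 50, MCC library 1 for 17, MEF library 2 for 10 and MEF library 1 for 4, and no gene was highest in an iMac library. MEF library 1 was the lowest of the 6 for 33 genes. Such counts of the highest and lowest library were not made over all tested genes.

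**Figure D1:**
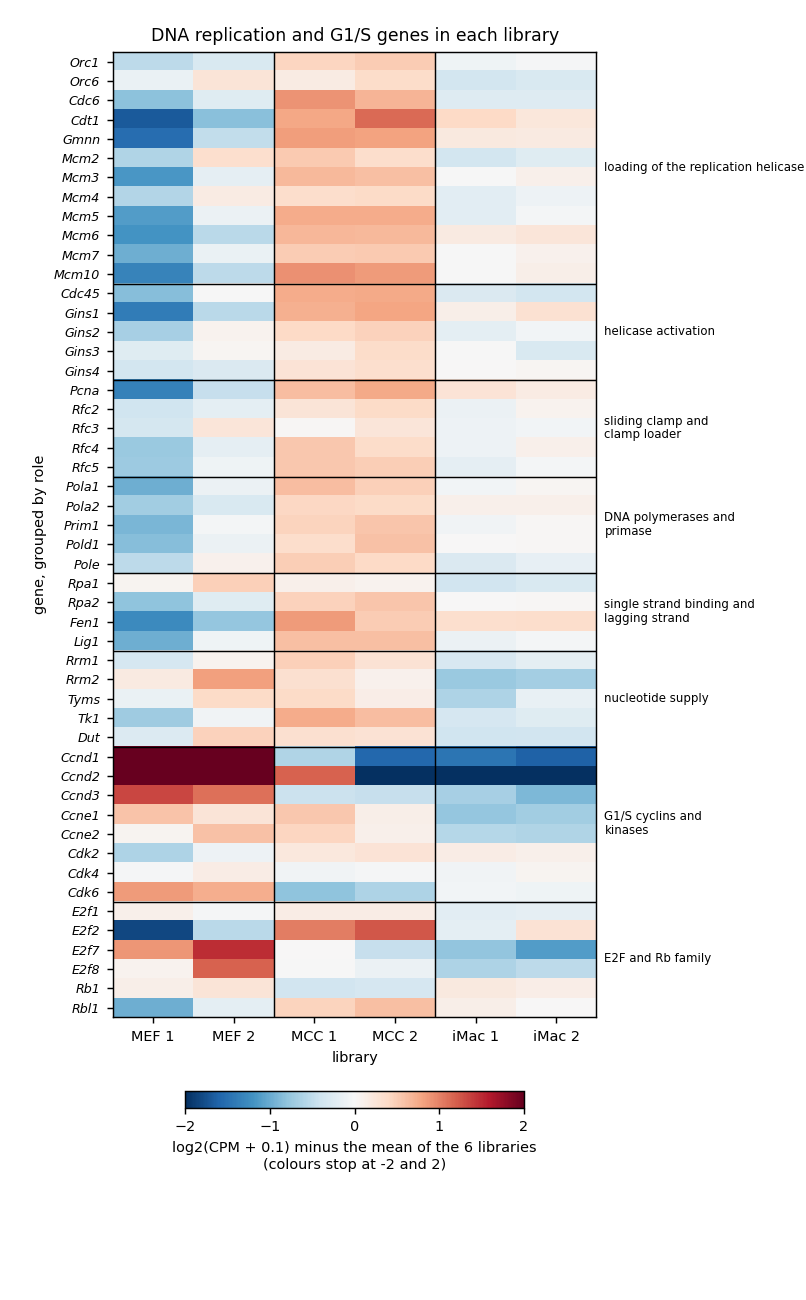
Heat map of the 50 genes (rows, grouped by role) in the 6 libraries (columns); the colour gives log2(CPM + 0.1) minus the mean of the 6 libraries, red for higher and blue for lower. Most replication genes are red in both MCC libraries and blue in MEF library 1, while Ccnd1, Ccnd2 and Ccnd3 are red in both MEF libraries.

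The calls differed in how far they rested on single libraries. How many calls over all tested genes lasted through every fit that left out 1 library was not counted. Of the 26 rises in MCC, 15 passed in each of the 6 fits that left out 1 library, and of the 6 falls 3 did, namely Ccnd1, Ccnd3 and Cdk6. None of the 9 rises in iMac passed without iMac library 1 or without iMac library 2, although the 50 genes kept medians of 0.24 and 0.15 in those fits. Over all genes, those fits called 12.5% and 12.6% higher and 13.4% lower in each. Of the 10 falls in iMac, Ccnd1, Ccnd3, Cdk6 and E2f7 passed in all 6 fits, and the others were lost without iMac library 1 or without iMac library 2. Leaving out MEF library 2 raised the rises in iMac to 22, and with library totals in place of scaled totals 3 genes rose, beside 21.1% of all genes. The rises in MCC numbered 15 without iMac library 1 and 15 without iMac library 2, beside 15.5% and 15.4% of all genes. They numbered 17 without MCC library 1 (18.6% of all genes) and 17 in a fit of the MEF and MCC libraries alone (20.2%).

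**Figure D2:**
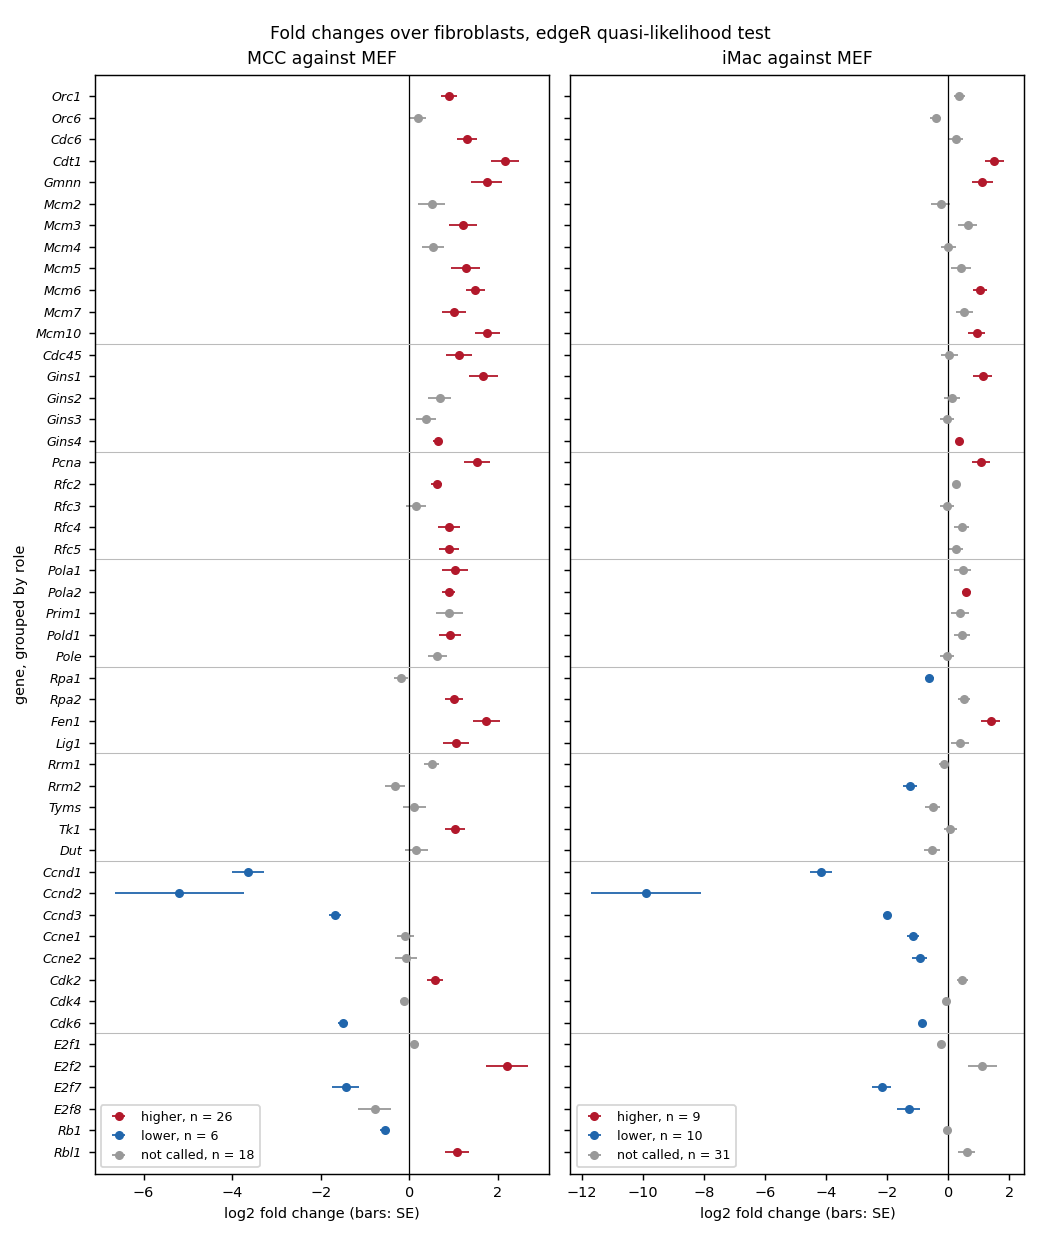
Log2 fold change of each gene over MEF with its SE (bars), for MCC on the left and iMac on the right; red marks genes called higher, blue genes called lower and grey genes not called, and the 2 horizontal axes differ in range. In MCC 26 genes are called higher and 6 lower, and in iMac 9 are called higher and 10 lower.

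Genes of helicase loading made up the largest role, which also holds the inhibitor geminin and Mcm10, which acts on the assembled helicase. In MCC 9 of these 12 genes rose and 0 fell, with a median log2 fold change of 1.25, and all 12 values were above 0. In iMac 4 rose and 0 fell, with a median of 0.47. Cdt1, the loading factor that is limited to the time before S phase, was at 15.1 and 27.0 CPM in MEF, 82.5 and 106 CPM in MCC and 63.7 and 56.9 CPM in iMac. The groups did not overlap. It rose by 2.16 ± 0.31 on the log2 scale in MCC (SE; adjusted p = 0.00528, edgeR) and by 1.52 ± 0.31 in iMac (adjusted p = 0.0113, edgeR). Gmnn, which encodes the inhibitor geminin, moved alongside its target. It was at 6.61 and 13.6 CPM in MEF, 34.3 and 33.6 CPM in MCC and 22.0 and 21.8 CPM in iMac. The log2 fold changes over MEF were 1.75 ± 0.35 in MCC (adjusted p = 0.0126, edgeR) and 1.12 ± 0.34 in iMac (adjusted p = 0.0393, edgeR).

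The 6 subunits of the MCM ring did not change by the same amount. Mcm6 was at 73.4 and 115 CPM in MEF, 268 and 264 CPM in MCC and 190.4 and 199.9 CPM in iMac, with no overlap between groups. It rose by 1.49 ± 0.22 in MCC (adjusted p = 0.00577, edgeR) and by 1.05 ± 0.22 in iMac (adjusted p = 0.0129, edgeR). Mcm5 was at 44.7 and 90.1 CPM in MEF, 164 and 163 CPM in MCC and 84.5 and 95.5 CPM in iMac. Both MCC libraries stood above all others, and the iMac libraries overlapped with MEF library 2. Its rise in MCC was 1.27 ± 0.33 (adjusted p = 0.0267, edgeR), and the value in iMac, 0.42 ± 0.33, did not pass. Mcm3 (1.22) and Mcm7 (1.01) also rose in MCC, whereas Mcm2 (0.50 ± 0.31) and Mcm4 (0.53 ± 0.25) did not pass. The call for Mcm3 and that for Mcm5 were lost without MCC library 1, iMac library 1 or iMac library 2, and that for Mcm7 without any 1 of the MCC or iMac libraries.

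Compared per kilobase of exon, the lowest of the 6 subunits was Mcm2 in every library. The highest was Mcm4 in MEF, at 20.2 and 34.2 CPM per kilobase, and Mcm6 in MCC and iMac, at 57.4 and 56.7 and at 40.8 and 42.9 CPM per kilobase. The ratio of the highest to the lowest subunit was 2.47 and 2.17 for the MEF libraries, 3.19 and 3.55 for MCC and 4.24 and 4.09 for iMac, with no overlap between the groups. Exon lengths here are the union of all annotated transcripts, so a ratio between genes also depends on which transcripts the cells make.

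Of the other genes of this role, Mcm10, Cdc6 and Orc1 rose in MCC. Mcm10, which helps to start the assembled helicase, was at 10.8 and 19.1 CPM in MEF, 51.9 and 49.8 CPM in MCC and 27.5 and 29.8 CPM in iMac, and rose by 1.77 ± 0.28 in MCC and by 0.94 ± 0.28 in iMac. Cdc6, which works with Cdt1 in loading the ring, rose by 1.30 ± 0.23 in MCC, and in iMac it was at 14.7 CPM in both libraries, within the MEF range of 9.95 to 14.9 CPM. Orc1, the large subunit of the origin recognition complex, rose by 0.89 ± 0.18 in MCC. Orc6, its smallest subunit, was at 21.7 and 28.3 CPM in MEF and 26.6 and 30.7 CPM in MCC, which overlap.

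Since many of these genes moved together, the 300 bases around their start sites were searched for the letters that E2F factors are known to bind. RefSeq windows (GRCm38.p6, 250 bases before and 50 after the start) were at hand for 39 of the 50 genes, 45 windows in all. The letters searched were TTTGGCGC, TTTCCCGC, TTTCGCGC and TTTGCCGC on both strands, and matches of these may overlap each other. At least 1 was found in 16 of the 45 windows (35.6%), beside 744 of 32851 windows of all genes (2.26%). For other replication factors, which are not among the 50 genes, it was 10 of 35 windows (28.6%). Of the windows of genes that rose in MCC 13 of 27 held a match, of those not called 2 of 14, and of those that fell 1 of 4. The letters CACGTG, the E-box that Myc and several other factors are known to bind, were in 7 of the 45 windows (15.6%) and in 7.15% of all windows. They were in 3 of 27 windows of genes that rose in MCC, 3 of 14 of those not called and 1 of 4 of those that fell. A match is a run of letters and was not tested for binding.

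The 6 stretches below are the 180 bases that end just before the start site, 5′ to 3′ on the strand of the gene, with the letters searched in capitals. Mcm5 (chr8:75109329-75109508, plus strand) and Mcm6 (chr1:128359706-128359885, minus strand) are shown as ring subunits that rose in MCC. In each a TTTGGCGC and a TTTCGCGC on opposite strands overlap, and Mcm6 has another TTTGGCGC closer to the start. Cdc6 (chr11:98907971-98908150, plus strand), Pola1 (chrX:93632156-93632335, minus strand) and Rbl1 (chr2:157204535-157204714, minus strand) rose in MCC too and hold 1 match each. Cdk4 (chr10:127063355-127063534, plus strand) is shown for contrast, with 4 CACGTG and no E2F letters.
Mcm5: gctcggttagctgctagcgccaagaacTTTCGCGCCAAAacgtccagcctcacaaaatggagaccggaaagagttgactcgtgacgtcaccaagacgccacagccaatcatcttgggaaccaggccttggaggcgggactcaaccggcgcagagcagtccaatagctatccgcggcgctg
Mcm6: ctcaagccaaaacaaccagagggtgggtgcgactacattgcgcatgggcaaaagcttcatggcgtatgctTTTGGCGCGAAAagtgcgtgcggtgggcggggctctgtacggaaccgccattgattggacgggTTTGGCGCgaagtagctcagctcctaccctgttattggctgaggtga
Cdc6: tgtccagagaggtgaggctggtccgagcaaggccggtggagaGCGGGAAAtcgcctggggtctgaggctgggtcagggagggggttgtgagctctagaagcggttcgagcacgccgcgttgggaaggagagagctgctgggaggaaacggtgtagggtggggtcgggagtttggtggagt
Pola1: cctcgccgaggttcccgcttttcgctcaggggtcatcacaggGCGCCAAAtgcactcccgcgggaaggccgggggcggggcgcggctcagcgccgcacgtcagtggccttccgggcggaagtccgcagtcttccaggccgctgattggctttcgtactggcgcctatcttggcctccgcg
Rbl1: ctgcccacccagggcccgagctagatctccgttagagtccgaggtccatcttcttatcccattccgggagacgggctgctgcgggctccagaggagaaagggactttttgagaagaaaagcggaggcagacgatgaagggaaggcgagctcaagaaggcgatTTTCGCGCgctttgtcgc
Cdk4: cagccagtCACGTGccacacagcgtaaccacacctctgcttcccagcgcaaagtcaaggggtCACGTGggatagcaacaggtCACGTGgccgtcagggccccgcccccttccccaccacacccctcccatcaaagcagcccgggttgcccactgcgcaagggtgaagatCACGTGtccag

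Of the 5 genes that turn the loaded ring into a moving helicase, 3 rose in MCC and 2 in iMac, and 0 fell in either. Gins1, a subunit of the GINS complex, was at 3.50 and 6.44 CPM in MEF, 15.4 and 16.3 CPM in MCC and 10.2 and 11.5 CPM in iMac. Neither pair of reprogrammed libraries overlapped with MEF, and the rises were 1.67 ± 0.32 in MCC (adjusted p = 0.0118, edgeR) and 1.13 ± 0.32 in iMac (adjusted p = 0.0313, edgeR). Cdc45, the partner of GINS in the helicase, was at 10.1 and 18.3 CPM in MEF, 30.8 and 31.0 CPM in MCC and 15.1 and 14.2 CPM in iMac. It rose in MCC by 1.12 ± 0.29, a call lost without MCC library 1, iMac library 1 or iMac library 2. The iMac values of Cdc45 lay inside the MEF range. Gins4 changed little but with little spread, by 0.64 ± 0.11 in MCC (adjusted p = 0.00769, edgeR) and 0.36 ± 0.11 in iMac (adjusted p = 0.0358, edgeR). Its iMac call was lost when any 1 of the 6 libraries was left out. Gins2 and Gins3 passed in neither comparison, and 67.3% of the exonic bases of Gins2 are shared with a gene on the opposite strand, Gse1, so its level is uncertain. Between 10.7% and 23.4% of the exonic bases are so shared for Ccnd1, Cdk4, Ccne2, Rfc2, Rb1, Rfc4, Mcm7, E2f8, Orc1 and Rfc5, nearly all with genes on the opposite strand.

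The sliding clamp and its loader were raised in MCC as well, with 4 of 5 genes called higher there and 1 in iMac. Pcna, the clamp that tethers polymerases to DNA, was at 64.0 and 119 CPM in MEF, 250.3 and 276 CPM in MCC and 199 and 184 CPM in iMac. No groups overlapped. The rise was 2.88-fold in MCC (log2 1.53 ± 0.30, adjusted p = 0.0121, edgeR) and 2.09-fold in iMac (log2 1.07 ± 0.30, adjusted p = 0.0291, edgeR). A processed copy of this gene, Pcna-ps2, drew between 465 and 1645 counts per library, and how reads that match both were counted is not given, so the level of Pcna is uncertain by that share. Among the loader subunits Rfc2 (0.62 ± 0.13), Rfc4 (0.90 ± 0.24) and Rfc5 (0.90 ± 0.23) rose in MCC, and Rfc3 (0.16 ± 0.23) did not pass. The call for Rfc4 was lost without MEF library 1, MCC library 1 or either iMac library, and that for Rfc5 without MCC library 1 or either iMac library.

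Of the 5 polymerase and primase genes, 3 rose in MCC and 1 in iMac, with medians of 0.91 and 0.45. Pola2, the regulatory subunit of the polymerase that starts each new strand, was at 24.8 and 32.4 CPM in MEF, 53.3 and 52.6 CPM in MCC and 42.9 and 43.1 CPM in iMac. It rose by 0.89 ± 0.15 in MCC and by 0.59 ± 0.15 in iMac (adjusted p = 0.00841 and 0.0234, edgeR). Pola1, the catalytic subunit of the same enzyme, rose by 1.03 ± 0.29 in MCC, and Pold1, the catalytic subunit of the main lagging-strand polymerase, by 0.92 ± 0.25. The call for Pola1 was lost without MCC library 1 or either iMac library, and that for Pold1 without MCC library 2 or either iMac library. Prim1, the primase (0.91 ± 0.30), and Pole, the leading-strand polymerase (0.63 ± 0.22), did not pass in MCC.

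Of the 4 genes that bind single strands or join lagging-strand fragments, 3 rose and 0 fell in MCC, beside 23.4% and 29.6% of all tested genes. In iMac 1 rose and 1 fell, which is near the shares of all tested genes, 25.1% and 32.4%. Lig1, the ligase that seals the fragments, was at 35.9 and 66.7 CPM in MEF, 107 and 107 CPM in MCC and 65.0 and 68.9 CPM in iMac. It rose by 1.06 ± 0.29 in MCC, a call lost without any 1 of the MCC or iMac libraries. Rpa2, a subunit of the protein that coats single-stranded DNA, rose by 1.01 ± 0.21 in MCC. Rpa1, the largest subunit of that protein, was at 114 and 153 CPM in MEF, 118 and 116 CPM in MCC and 84.5 and 89.3 CPM in iMac. It fell by 0.62 on the log2 scale in iMac (SE 0.15, adjusted p = 0.0208, edgeR), and its MCC values lay within the MEF range. Fen1, the flap nuclease, was low throughout, at 1.41 and 2.04 CPM in MEF, 6.48 and 5.08 CPM in MCC and 4.48 and 4.55 CPM in iMac. It rose by 1.74 ± 0.30 in MCC and by 1.39 ± 0.30 in iMac, but 84.2% of its exonic bases are shared with genes on the opposite strand, and the strand setting of the counts is not given, so its level is uncertain.

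Enzymes of deoxynucleotide supply did not rise as a group. Of 5, 1 rose in MCC and 0 fell, and in iMac 0 rose and 1 fell, with medians of 0.16 and -0.51. The shares of all tested genes were 23.4% higher and 29.6% lower in MCC, and 25.1% and 32.4% in iMac. Tk1, the thymidine kinase of dividing cells, was at 21.0 and 32.5 CPM in MEF, 57.0 and 52.6 CPM in MCC and 27.2 and 28.9 CPM in iMac. It rose by 1.04 ± 0.22 in MCC (adjusted p = 0.016, edgeR) and lay within the MEF range in iMac. Rrm2, the small subunit of ribonucleotide reductase that is made in S phase, was at 79.1 and 124 CPM in MEF, 87.5 and 74.4 CPM in MCC and 41.7 and 43.8 CPM in iMac. It fell by 1.25 on the log2 scale in iMac (SE 0.23, adjusted p = 0.00894, edgeR), and both iMac libraries were below all others. Rrm1, the large subunit, was at 133 and 177 CPM in MEF, 234 and 205 CPM in MCC and 135 and 146 CPM in iMac, and passed in neither comparison. Tyms, which makes thymidylate, and Dut, which removes dUTP, passed in neither, at log2 values of 0.11 and 0.16 in MCC and -0.51 and -0.53 in iMac.

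Among the 8 cyclins and kinases of G1/S, 4 fell and 1 rose in MCC, and 6 fell and 0 rose in iMac. Ccnd1, a D-type cyclin, was at 930.3 and 1081 CPM in MEF, 107 and 54.3 CPM in MCC and 59.1 and 52.5 CPM in iMac. Both reprogrammed groups were far below MEF and overlapped with each other. The fall was 12.5-fold in MCC (log2 -3.64 ± 0.36, adjusted p = 0.00205, edgeR) and 18.0-fold in iMac (log2 -4.17 ± 0.37, adjusted p = 0.00123, edgeR).

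Ccnd2 had the largest fall of the 50 genes. Its level was 1867 and 1019.5 CPM in MEF, 75.3 CPM in MCC library 1, 3.72 CPM in MCC library 2, and 1.13 and 1.87 CPM in iMac. The MCC libraries thus differed by 4.32 on the log2 scale, and Ccnd2 was the only 1 of the 50 genes to differ by 2-fold or more between them. Over all tested genes 12.8% were higher in MCC library 1 by that much. The fall was -5.19 ± 1.45 in MCC (adjusted p = 0.0329, edgeR) and -9.91 ± 1.80 in iMac (adjusted p = 0.00843, edgeR). In MCC it was -8.59 without MCC library 1, and the call was lost without either MEF library or either iMac library. The 12 fibroblast markers differed between the MCC libraries in the same direction, at a median of 3.10 on the log2 scale, with 12 of 12 higher in library 1 and 11 of them by 2-fold or more. Their part in the Ccnd2 value of MCC library 1 was not tested.

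Ccnd3, the D-type cyclin common in blood cells, fell by less. It was at 217 and 184 CPM in MEF, 63.7 and 62.0 CPM in MCC and 53.9 and 46.0 CPM in iMac, with no overlap between groups. The falls were 3.19-fold in MCC (adjusted p = 0.00113, edgeR) and 4.01-fold in iMac (adjusted p = 0.000586, edgeR). Per kilobase of exon, Ccnd3 made up 5.88% and 5.83% of the summed D-type cyclin level for the MEF libraries, 19.1% and 37.2% for MCC and 32.7% and 31.6% for iMac. Ccnd2 made up 47.2% and 30.2% of it in MEF and 0.641% and 1.20% in iMac. By this measure Ccnd1 was the largest part in all libraries but MEF library 1, where Ccnd1 and Ccnd2 were at 47.0% and 47.2%. These shares depend on the exon lengths of all annotated transcripts, 4709 bases for Ccnd1, 9409 for Ccnd2 and 8775 for Ccnd3. In CPM, Ccnd3 was above Ccnd1 in MCC library 2, at 62.0 against 54.3 CPM. Ccnd1 was still the highest in CPM in MEF library 2, MCC library 1 and both iMac libraries.

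**Figure D3:**
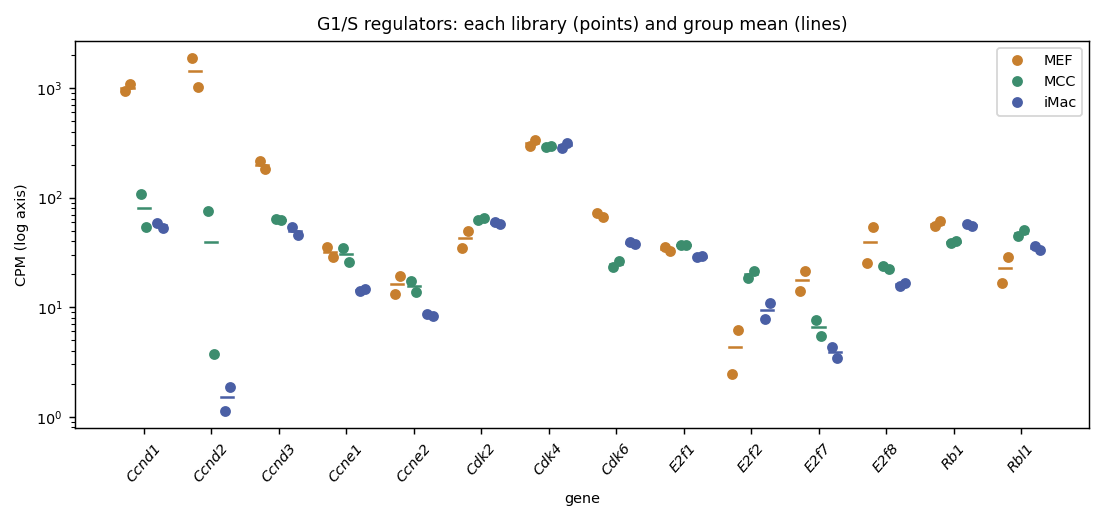
Level of 14 G1/S regulators in CPM on a log axis; each point is 1 library, coloured by group, and each short line the mean of 2 libraries. Ccnd1, Ccnd2 and Ccnd3 lie highest in MEF, Cdk4 is level across the groups, and Cdk6 and Rb1 are lowest in MCC.

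The kinases of the D-type cyclins differed from each other. Cdk4 was at 296 and 336 CPM in MEF, 288 and 296 CPM in MCC and 286 and 312 CPM in iMac, and all 3 groups overlapped. Cdk6, its close relative, was at 73.1 and 67.0 CPM in MEF, 23.3 and 26.5 CPM in MCC and 39.1 and 38.1 CPM in iMac. It fell by 1.49 on the log2 scale in MCC (SE 0.12, adjusted p = 0.00108, edgeR) and by 0.86 in iMac (SE 0.11, adjusted p = 0.00349, edgeR). Both iMac libraries were above both MCC libraries, a pattern that only Cdk6 and Rb1 showed among the 50. Cdk2, the partner of the E-type cyclins, rose by 0.58 ± 0.18 in MCC (adjusted p = 0.0465, edgeR), a call lost without any 1 of the MCC or iMac libraries.

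The E-type cyclins, which activate Cdk2 late in G1, overlapped between MEF and MCC and were lower in iMac. Ccne1 was at 35.7 and 28.6 CPM in MEF, 34.7 and 25.9 CPM in MCC and 13.9 and 14.7 CPM in iMac. Ccne2 was at 13.3 and 19.3 CPM in MEF, 17.2 and 13.7 CPM in MCC and 8.60 and 8.38 CPM in iMac. For each the iMac libraries were below all others, and MEF and MCC overlapped. The falls in iMac over MEF were 1.17 ± 0.20 for Ccne1 (adjusted p = 0.00709, edgeR) and 0.94 ± 0.24 for Ccne2 (adjusted p = 0.0231, edgeR) on the log2 scale, and that of Ccne2 was also lost without MEF library 2.

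The E2F family did not move as 1 group. In MCC 2 of the 6 E2F and Rb family genes rose and 2 fell, and in iMac 0 rose and 2 fell. Beside these counts, 23.4% of all tested genes rose and 29.6% fell in MCC, and 25.1% rose and 32.4% fell in iMac. E2f1, an activator, was at 35.5 and 32.7 CPM in MEF, 36.8 and 36.6 CPM in MCC and 28.6 and 29.3 CPM in iMac, and passed in neither comparison. E2f2, another activator, was at 2.47 and 6.18 CPM in MEF, 18.4 and 21.5 CPM in MCC and 7.85 and 11.0 CPM in iMac. Its rise in MCC was 4.60-fold (log2 2.20 ± 0.48, adjusted p = 0.0161, edgeR), the largest of the 50, and the iMac value of 1.12 ± 0.47 did not pass. E2f7, an atypical E2F that represses its targets, was at 14.1 and 21.3 CPM in MEF, 7.62 and 5.48 CPM in MCC and 4.36 and 3.44 CPM in iMac. It fell by 1.44 on the log2 scale in MCC, a call lost without MEF library 2 or MCC library 2, and by 2.19 in iMac (adjusted p = 0.00455, edgeR). E2f8, the relative of E2f7, was at 25.1 CPM in MEF library 1 and 54.2 CPM in MEF library 2, and fell by 1.30 in iMac, to 15.6 and 16.6 CPM.

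The pocket proteins also moved in different ways. Rb1, which encodes the retinoblastoma protein, was at 55.1 and 60.8 CPM in MEF, 38.8 and 40.1 CPM in MCC and 57.8 and 55.5 CPM in iMac. It fell by 0.55 on the log2 scale in MCC (SE 0.10, adjusted p = 0.00933, edgeR), a call lost without MCC library 2, and the iMac values overlapped with MEF. Rbl1, which encodes the relative p107, was at 16.7 and 28.8 CPM in MEF, 45.0 and 50.4 CPM in MCC and 35.8 and 33.3 CPM in iMac. It rose by 1.07 ± 0.27 in MCC, a call lost without MCC library 2 or either iMac library, and the iMac value of 0.61 ± 0.27 did not pass.

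Between the reprogrammed groups, nearly every gene was lower in iMac, yet none passed the test with all 6 libraries. The log2 fold change of iMac over MCC was below 0 for 47 of the 50, with a median of -0.54 beside -0.02 for all tested genes. Cdk6, Rb1 and Cdk4 were the genes above 0, and Cdk4 (0.03) was below 0 with library totals in place of scaled totals. Both iMac libraries were below both MCC libraries for 46 genes (92%), and this held for 27.9% of all tested genes. The reverse held for 2 genes, Cdk6 and Rb1, and for 27.7% of all tested genes. By the edgeR quasi-likelihood test 0 of the 50 were called in either direction, beside 0.0107% of all tested genes called higher and 0.0107% called lower. At an unadjusted p under 0.05 it was 20 genes lower and 2 higher, where all tested genes gave 10.5% and 7.69%.

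Other fits gave other counts. In a fit of the MCC and iMac libraries alone, 28 of the 50 were lower and 2 higher in iMac, beside 4.24% and 4.36% of the genes tested there. DESeq2 on all 6 libraries called 14 lower and 2 higher, beside 9.29% and 7.02%. In both of these fits the genes called higher were Cdk6 and Rb1. Without MCC library 2, Ccnd1, Ccnd2 and Ccne1 were called lower, beside 5.71% of all genes. In the fit of 6 libraries Cdc45 had a log2 fold change of -1.08 ± 0.29, Cdc6 of -1.06 ± 0.23, Ccne1 of -1.08 ± 0.20 and Tk1 of -0.97 ± 0.22. Ccnd2 had the lowest value, -4.72 ± 1.47.

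For 34 of the 50 genes both MCC libraries were above all 4 other libraries, and this held for 10.6% of all tested genes. They comprised 11 of the 12 loading genes, all 5 of helicase activation and all 5 polymerase and primase genes. For 20 of these 34 the iMac libraries lay between, above both MEF libraries and below both MCC libraries. For the others, such as Mcm5, Cdc45, Lig1 and Tk1, the iMac libraries overlapped with MEF, except for E2f1, where they lay below MEF. The share of all tested genes with iMac between the other groups was not counted.

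The MEF libraries were not alike for these genes. MEF library 2 was above MEF library 1 for 45 of the 50, at a median log2 difference of 0.60, while the median over all tested genes was 0.00. All 36 replication and nucleotide genes were higher in library 2. The loading genes had a median of 0.83, the helicase activation genes 0.74 and the polymerase and primase genes 0.73, but the cyclins and kinases 0.03. By 2-fold or more 4 genes were higher in library 2, namely Gmnn, Mcm5, E2f2 and E2f8, and 0 in library 1. Over all tested genes this was 7.65% and 4.66%. The 5 genes higher in library 1 were Ccnd2, Ccnd3, Ccne1, Cdk6 and E2f1. The same median difference was -0.01 in MCC and 0.07 in iMac. With the replication genes went the 20 mitosis genes, all higher in MEF library 2 at a median of 0.91, and against them the fibroblast markers, of which 11 of 12 were higher in MEF library 1. Their part in the difference was not tested.

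**Figure D4:**
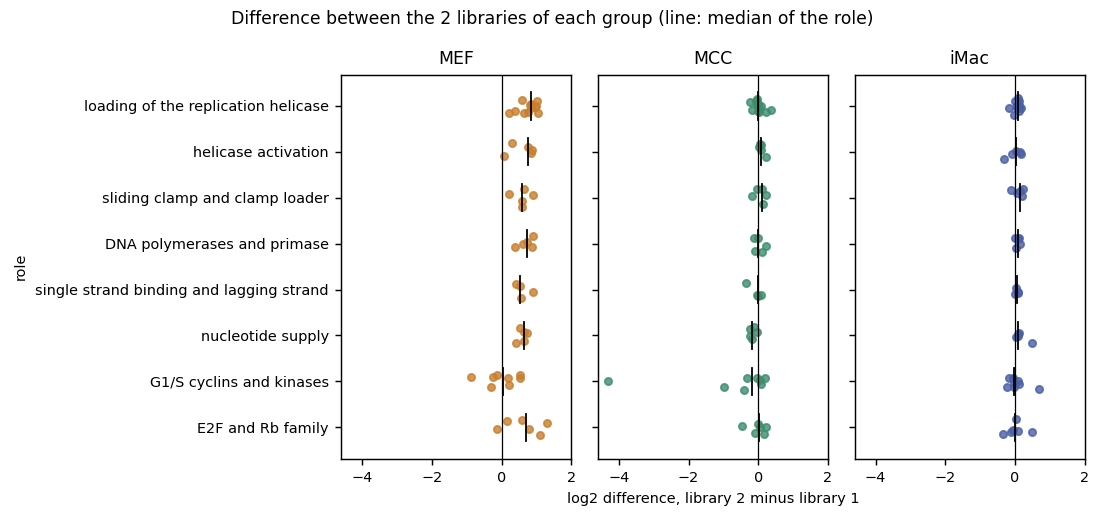
Log2 difference between the libraries of each group, library 2 minus library 1; each point is 1 gene, rows are roles, and the black line is the median of the role. In MEF the replication roles lie to the right of 0 at medians of 0.54 to 0.83, and in MCC and iMac they lie near 0; the far left point in MCC is Ccnd2, which differed by 4.32.

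Set against each MEF library alone, the rise of the replication machinery differed in size. With MEF library 1 as the only fibroblast library the 50 genes had a median log2 fold change of 1.08 in MCC, with 34 called higher and 4 lower, beside 21.6% and 18.2% of all genes tested in that fit. With MEF library 2 alone the median was 0.53, with 26 higher and 8 lower, beside 19.3% and 19.7%. Of the 36 replication and nucleotide genes 31 were above 0 against each of the MEF libraries. The other 5, Rfc3, Rpa1, Rrm2, Tyms and Dut, were above 0 against library 1 and below it against library 2. A lone MEF library is assumed in such a fit to vary like the other groups.

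For iMac the choice of the MEF library decided the direction of more genes. Against MEF library 1 the median of the 50 was 0.43, with 22 called higher and 9 lower, beside 21.4% and 24.8% of all genes tested. Against MEF library 2 it was -0.05, with 8 called higher and 14 lower, beside 21.2% and 24.6%. Of the 36 replication and nucleotide genes 20 were above 0 against both, 5 below 0 against both, and 11 above 0 against library 1 only, among them Mcm2, Mcm4, Cdc6 and Cdc45. Mcm4 was called in opposite directions, higher at 0.41 against library 1 (adjusted p = 0.0328, edgeR) and lower at -0.31 against library 2 (adjusted p = 0.0384, edgeR). The cyclins, kinases, E2F and Rb genes depended less on it, with 10 of 14 below 0 against each MEF library and medians of -0.67 and -0.89.

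**Figure D5:**
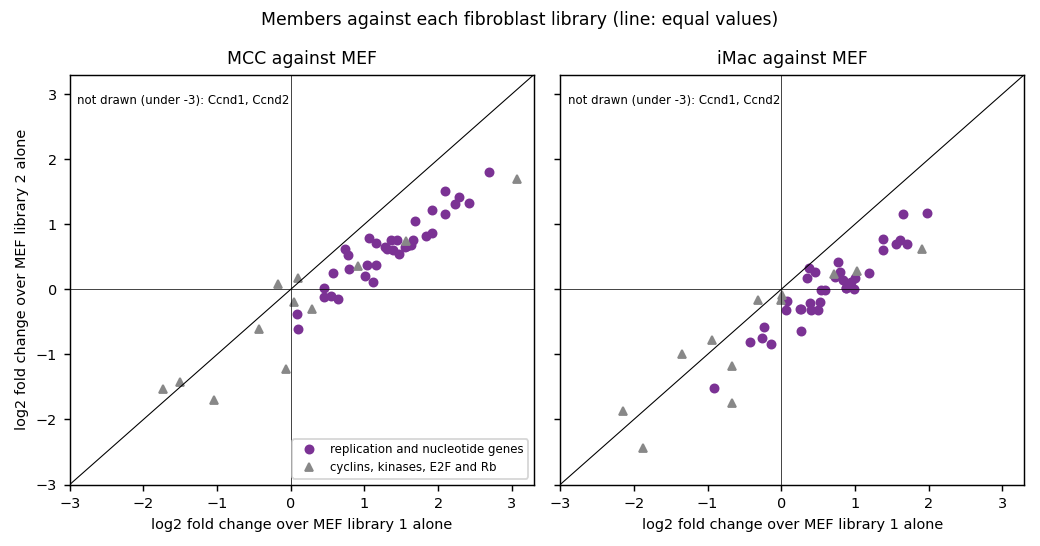
Log2 fold change of each gene over MEF library 1 alone (horizontal axis) and over MEF library 2 alone (vertical axis), for MCC on the left and iMac on the right; circles are the 36 replication and nucleotide genes, triangles the 14 cyclin, kinase, E2F and Rb genes, and the line marks equal values. All circles lie below the line, and 31 of them in MCC but 20 in iMac are above 0 on both axes; Ccnd1 and Ccnd2 lie under -3 and are not drawn.

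Further genes of the same pathways were read from lists of their own. Of 30 other replication factors 15 rose and 1 fell in MCC, and 5 rose and 1 fell in iMac, with medians of 0.67 and 0.17. Over all tested genes 23.4% rose and 29.6% fell in MCC, and 25.1% rose and 32.4% fell in iMac. Dna2, a nuclease and helicase of the lagging strand, rose from 6.37 and 10.2 CPM in MEF to 33.6 and 44.1 CPM in MCC and 25.8 and 31.4 CPM in iMac. Orc4, a core subunit of the origin recognition complex, was the 1 that fell, by 0.68 in MCC and by 0.77 in iMac on the log2 scale. Of 7 other E2F and Rb family genes 3 rose and 2 fell in MCC, and 2 rose and 3 fell in iMac. Rbl2, which encodes the pocket protein p130 of resting cells, rose by 0.61 ± 0.16 in MCC and by 1.01 ± 0.16 in iMac. Its level is uncertain, as 20.97% of its exonic bases are shared with genes on the opposite strand.

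Inhibitors of the G1/S kinases were lower in both reprogrammed groups, with 5 of 7 falling in MCC and 6 of 7 in iMac, and 0 rising. Cdkn1c, which encodes p57, went from 89.0 and 62.0 CPM in MEF to 0.26 and 0.13 CPM in MCC and 0.15 and 0.03 CPM in iMac. Of the exonic bases of Cdkn1c, 30.65% are shared with a gene on the opposite strand, so its level is uncertain. Cdkn2b, which encodes an inhibitor of Cdk4 and Cdk6, went from 142 and 129 CPM to 5.20 and 1.12 CPM in MCC and 0.87 and 1.12 CPM in iMac. Of the 20 mitosis genes 5 rose and 0 fell in MCC, and 1 rose and 1 fell in iMac, with medians of 0.67 and -0.23. For both lists the shares of all tested genes were 23.4% higher and 29.6% lower in MCC, and 25.1% and 32.4% in iMac. The share of mitosis genes that rose in MCC was near that of all tested genes. The medians of the mitosis genes stand beside medians of 1.25 and 0.47 for the loading genes in the same comparisons. The difference between the lists was not tested.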

How the data were processed

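The authors deposited raw counts of reads per gene for 6 libraries, made with STAR on mm10 and featureCounts per the submitters' processing notes. These name no version, annotation or strand setting, nor how reads with several matches were counted. Per the labels' protocols, Trizol RNA and an mRNA library kit were used.

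Counts were tested as deposited with edgeR 4.0.16 in R 4.3.3: filterByExpr, which left 18613 genes, TMM scaling, and the two-sided quasi-likelihood test over the 6 libraries together, modelling group alone (3 residual degrees of freedom). P-values were adjusted by Benjamini and Hochberg over the genes tested and called under 0.05. The SE is the log2 fold change over the root of F. Log2 differences between libraries of a group used a prior count of 2. Exon lengths, overlaps and coordinates came from GENCODE M21 (GRCm38, the assembly of mm10), where all 50 symbols matched, and start-site windows from RefSeq on GRCm38.p6. The fit was tested on simulated counts, where it returned the fold changes put in but called a minority of the changed genes. Far fewer genes were changed there than were called in MCC over MEF, so that share does not carry over to these comparisons.

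The 50 genes, the lists and the tests were chosen with earlier results of these data known. Named in full were Pcna, Mcm5, Cdt1, Gmnn, the D- and E-type cyclins, Cdk6, E2f1 and Rb1; per role and comparison the 2 called genes with the largest fold change, filled with the most expressed; and genes called against the median of their role. Other genes named were chosen after their values were seen. Alternatives were median-ratio scaling, library totals without scaling, DESeq2 1.42.0, no filter, 5 CPM in 2 libraries, only the groups compared, a replicate block and leaving out each library. The tables were read with Python 3.11.15.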

Additional observations from a re-analysis of the deposited data

How the results depend on the processing

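With 2 libraries per group the fits rest on 3 residual degrees of freedom, and the precision of low genes such as Fen1 is limited further by their counts. For MCC over MEF, genes called higher were 17 when only the 2 groups were fitted and 15 to 34 when 1 library was left out. The median log2 fold change was 0.53 to 1.08 over those fits, and 4 to 8 genes were called lower. For iMac over MEF, 3 genes were called higher with library totals only, and 0 to 22 higher and 4 to 14 lower when 1 library was left out, with medians of -0.051 to 0.43. For iMac over MCC, the fit of only the 2 groups called 2 higher and 28 lower and DESeq2 called 2 higher and 14 lower. Leaving out 1 library gave 0 to 3 lower and 0 higher, with medians of -0.66 to -0.51. With library totals only the median was -0.67, where the median of all tested genes moved to -0.16. With the same totals the 50 genes' MEF library 1 minus library 2 median went from -0.60 to -0.79, and that of all tested genes from 0 to -0.18. The cause of these differences was not tested. The other settings kept each count within 1.5 times its value.

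Changes of sign concerned genes with no call with all 6 libraries. For MCC over MEF, Ccne1 (0.025) and Ccne2 (0.037) changed sign with only the 2 groups fitted. Over the fits that left out 1 library, Ccne1 ranged from -0.30 to 0.23, Ccne2 from -0.31 to 0.28, Cdk4 from -0.19 to 0.037, Rpa1 from -0.38 to 0.088, Rrm2 from -0.60 to 0.092, Rfc3 from -0.097 to 0.54, Tyms from -0.11 to 0.46 and Dut from -0.16 to 0.63. For iMac over MEF, Mcm4 changed sign with median-ratio scaling (-0.051), library totals only (-0.097), only the 2 groups fitted (-0.010) and DESeq2 (-0.048). Cdc45 did so with median-ratio scaling (-0.018), library totals only (-0.069) and DESeq2 (-0.015), and Tk1 with library totals only (-0.033). Over the fits that left out 1 library, Mcm4 ranged from -0.31, called lower without MEF library 1, to 0.41, called higher without MEF library 2. Mcm2 ranged from -0.64 to 0.27, Cdc6 from -0.0099 to 0.54, Cdc45 from -0.32 to 0.50, Gins2 from -0.19 to 0.52, Gins3 from -0.19 to 0.11, Rfc3 from -0.31 to 0.25, Rfc5 from -0.011 to 0.60, Tk1 from -0.20 to 0.39, Pole from -0.31 to 0.27, Rrm1 from -0.32 to 0.059 and Rb1 from -0.092 to 0.015. For iMac over MCC, Cdk4 was -0.10 with library totals only and ranged from -0.082 to 0.099 over the fits that left out 1 library, and Ccnd1 from -1.08 to 0.015. Some of the other genes passed the test at 1 end of their range, all in fits without 1 MEF library except Ccnd1 without MCC library 2.

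The labels number the libraries of each group 1 and 2, with no word on what a number shares. Deviations of the same number had correlations across genes of 0.13 (MEF and MCC), -0.01 (MEF and iMac) and 0.00 (MCC and iMac). With a replicate block 26 genes were higher and 6 lower in MCC over MEF, beside 21.3% and 27.2% of all tested genes. In iMac over MEF 9 were higher and 10 lower, beside 23.1% and 30.1%. In iMac over MCC 0 were called, and 0 of all tested genes. The genes were not all the same. In MCC Prim1 was called higher and Cdk2 was lost, and in iMac over MEF E2f2 was called higher and Gins4 was lost.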
